A study of Drosophila melanogaster with 24 samples.

Results

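The genotype by methionine deprivation interaction addressed whether flies that lack Gcn2 answered the loss of dietary methionine with other transcripts than control flies. For each gene it is the difference between the diet without methionine (-M) and the complete diet (Yaa) in Gcn2 mutants, minus the same difference in wDah controls. Its 12 libraries, of the 24 in the series, were chosen by their labels: 3 each of wDah on Yaa, wDah on -M, Gcn2 mutants on Yaa and Gcn2 mutants on -M. A value below 0 means that the mutants rose less, or fell more, on -M than wDah flies did, and a value above 0 the opposite. Both genotypes carry the white mutation in an outbred Dahomey background. The mutants carry a single null allele, in which a white marker gene takes the place of the whole Gcn2 reading frame, and no other allele was analysed here. All flies were once-mated females that spent 3 days on their diet, and each library held RNA from heads and thoraces of 25 flies. The Yaa diet is a fully synthetic food whose amino acids follow the composition of yeast, and -M is the same food with methionine omitted. The remaining 12 libraries come from the same genotypes without arginine (-R) or without any amino acid (-All).

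GCN2 is a kinase that is switched on by transfer RNAs that carry no amino acid, and it phosphorylates the translation factor eIF2alpha. Protein synthesis then slows, while the transcription factor ATF4, named crc in flies, is translated more and activates genes for amino acid synthesis, amino acid transport and the charging of transfer RNAs. Methionine is the source of S-adenosylmethionine, the methyl donor of the cell, and is linked to folate one-carbon units and to glycine and serine. In adult flies the fat body, which serves as liver and fat store, carries much of the response to diet.

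The targeted gene was measured first. Gcn2 (FBgn0019990, chromosome 3R from 31395660 to 31402013, plus strand, BDGP6 assembly) held 689, 662 and 601 normalized counts in the libraries of wDah on Yaa and 664, 687 and 637 in wDah on -M. In mutants it held 159.9, 130 and 185 on Yaa and 111, 146 and 140.1 on -M. All mutant libraries lay below all wDah libraries, with 145 ± 25.4 (SD, n = 6) against 657 ± 33.5 (SD, n = 6), or 22.1% of the control level (two-sided exact permutation test, p = 0.00216, the smallest that 6 against 6 can give). The exons of Gcn2 overlap those of PNPase on the other strand, and the strand of the reads is not given in the sources used here. From these counts the remaining signal can therefore not be assigned to either gene. The authors reported that a Northern blot of this mutant showed no Gcn2 RNA. The interaction of Gcn2 itself was -0.28 ± 0.19 (SE, limma, adjusted p = 0.42). Each library held between 20.9 and 24.8 M normalized counts, which correspond to an estimated 21.1 to 28.4 M reads. Markers of flight muscle, photoreceptors, neurons, fat body, hemocytes and oenocytes were above 0 in every library. Summed transcripts of 7 ovary markers stood between 814 and 1043 in 9 libraries, and at 1888, 2013 and 6824 in wDah -M replicate 1, Gcn2 -M replicate 2 and Gcn2 Yaa replicate 2. Results are therefore also given without the last of these, which stands furthest apart.

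On the scale of log2(normalized count + 1), 10985 features whose normalized counts averaged 10 or more were tested with limma, and 761 of them (6.93%) had an interaction at an adjusted p-value under 0.05. Of these, 463 (4.21%) were above 0 and 298 (2.71%) below 0. The median of all features was -0.04, the median size of a called interaction was 0.60, and 83 features exceeded 1 while 57 fell under -1. Rescaling all libraries to the same total turned the split around, to 375 above and 472 below 0. Without Gcn2 Yaa replicate 2 the count was 1262, with 657 above and 605 below 0, and it held 760 of the 761 features.

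The same fit called 1331 features (12.1%) between -M and Yaa in wDah, with 970 (8.83%) higher and 361 (3.29%) lower on -M. In mutants it called 2273 (20.7%), with 1423 (13.0%) higher and 850 (7.74%) lower. Of the 970 features that rose in wDah, 133 had an interaction below 0 and 172 one above 0. All 172 also rose in mutants, whereas of the 133, 18 rose in mutants, 26 fell and 89 were not called. The most common pattern among interactions above 0 was a rise that passed the test in mutants and not in wDah, in 250 features, followed by a rise in both genotypes that was larger in mutants, in 172. Among interactions below 0, a fall that passed the test in mutants only was found in 154 features and a rise that passed it in wDah only in 89. The diet effects were called in opposite directions in 40 features. Between the genotypes, 883 features (8.04%) differed on Yaa, 415 (3.78%) higher and 468 (4.26%) lower in mutants. On -M 1988 (18.1%) differed, 1026 (9.34%) higher and 962 (8.76%) lower. Counts of list members below are to be read beside these shares. For interactions they were 4.21% above 0 and 2.71% below 0.

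**Figure D1:**
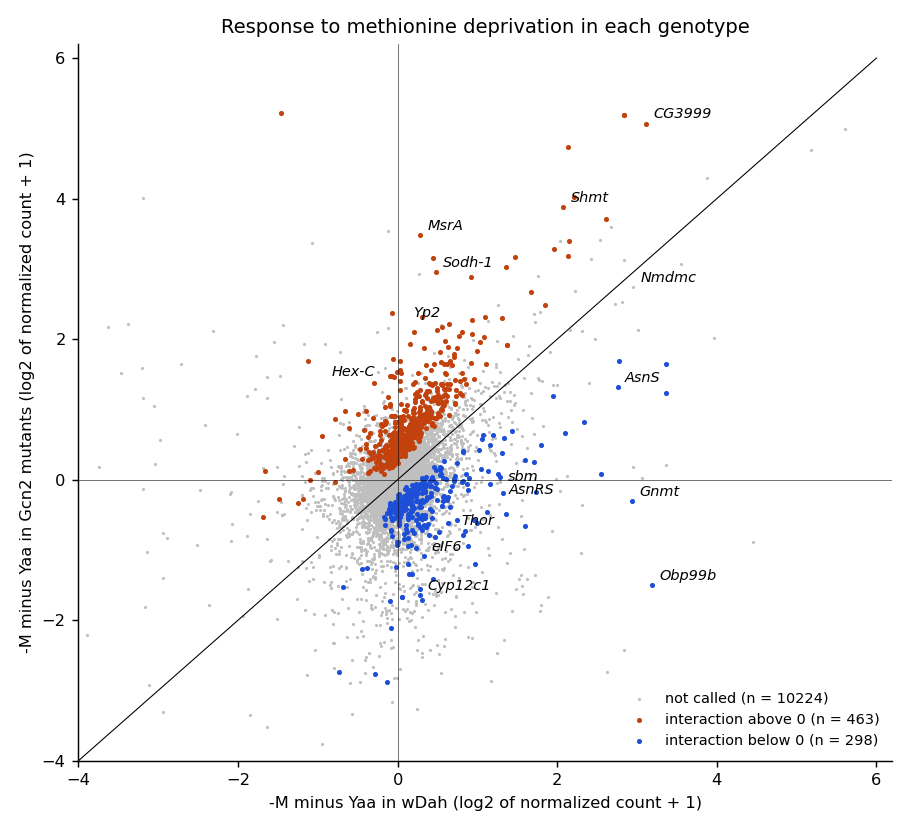
Change between -M and Yaa in wDah (horizontal axis) and in Gcn2 mutants (vertical axis), both in log2 of normalized count + 1, with a point for each of the 10985 features tested, except 9 that lie outside the axes. On the diagonal the change is equal in both genotypes. The 463 features with an interaction above 0 lie above it, with MsrA near the vertical axis, and the 298 with an interaction below 0 lie under it, with Gnmt and AsnRS near the horizontal axis.

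Within the integrated stress response, 13 of 22 listed genes passed the test as higher on -M in wDah and 8 in mutants. The shares over all features were 8.83% and 13.0%. Of the listed genes that rose in wDah, 4 had an interaction below 0. AsnS (FBgn0270926, chromosome 3L from 21173118 to 21174973, plus strand), the asparagine synthetase and a known ATF4 target, held 801, 794 and 747 normalized counts in wDah on Yaa and 5091, 5110 and 5709 on -M. In mutants the libraries held 476, 723 and 528 on Yaa and 1290, 1665 and 1316 on -M. The ranges on the 2 diets did not overlap in either genotype, and the rise was 6.78-fold in wDah and 2.49-fold in mutants, an interaction of -1.44 ± 0.20 (SE, adjusted p = 0.001). AsnS thus rose in mutants too, to a level on -M (1424 ± 209.5, SD, n = 3) between those of wDah on Yaa (780.4 ± 29.3) and on -M (5303 ± 352).

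Thor (FBgn0261560), the translation repressor 4E-BP, held 12197, 12668 and 10956 in wDah on Yaa, 19454, 18925 and 18156 in wDah on -M, 14238, 8651 and 11844 in mutants on Yaa and 9245, 8141 and 8726 in mutants on -M. It rose 1.58-fold in wDah, while its ranges overlapped in mutants, and the interaction was -1.04 ± 0.20 (SE, adjusted p = 0.0085). CG10365, annotated as a glutathione-degrading gamma-glutamylcyclotransferase, rose from 2669 to 3965 in wDah and stood at 3340 and 2796 in mutants (interaction -0.81, adjusted p = 0.0054). The interaction of scyl, an inhibitor of TORC1, was -0.39 (adjusted p = 0.0041). Of the 22 listed genes of the integrated stress response, 4 had an interaction below 0, namely AsnS, Thor, CG10365 and scyl, and 1 above 0, the serine hydroxymethyltransferase Shmt described below. Without Gcn2 Yaa replicate 2 these counts were 6 and 2.

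Other members of this list rose on -M in both genotypes, and their interaction did not pass the test. Nmdmc, a mitochondrial folate dehydrogenase, held 1031, 967 and 932 on Yaa and 7237, 6975 and 8557 on -M in wDah, and 367, 359.6 and 381 and 2429, 3044 and 2050 in mutants. It rose 7.74-fold and 6.69-fold, with an interaction of -0.21 ± 0.17 (SE, adjusted p = 0.51), although mutants lay below wDah on both diets. The phosphoserine phosphatase aay rose 5.54-fold and 4.00-fold (interaction -0.47 ± 0.17, adjusted p = 0.14), and CG11899, annotated as the phosphoserine aminotransferase, rose 2.62-fold and 2.60-fold (interaction -0.01 ± 0.09, adjusted p = 0.96). The transcript of crc, which encodes ATF4, was at 22849 ± 178 and 22274 ± 786 (SD, n = 3) in wDah on Yaa and -M, and at 21020 ± 1691 and 20837 ± 233 in mutants, with an interaction of 0.03 ± 0.08 (adjusted p = 0.86). PEK, the other eIF2alpha kinase of the fly, had an interaction of -0.13 ± 0.11 (adjusted p = 0.56).

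**Figure D2:**
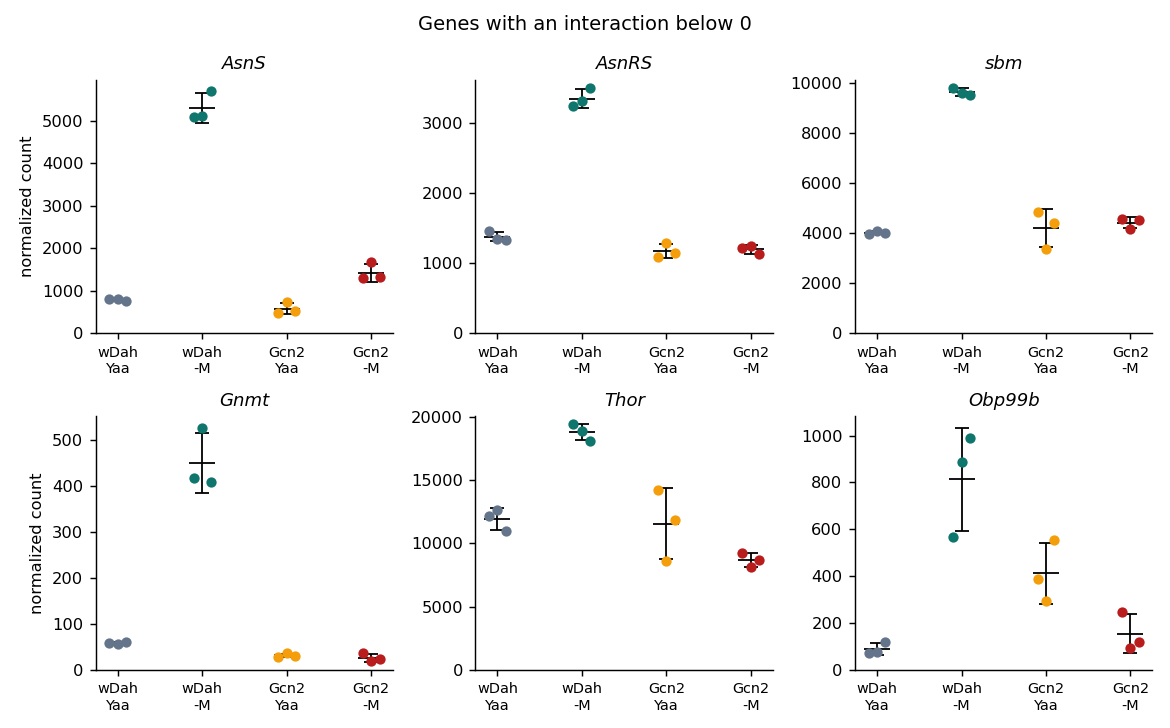
Normalized counts of 6 genes with an interaction below 0, by genotype and diet. Points are the 3 libraries of a group, horizontal marks their mean and bars the SD, and the vertical axis starts at 0. In each panel wDah on -M is the highest group, with AsnRS and sbm overlapping between the diets in mutants and Obp99b lower in mutants on -M than on Yaa.

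Of 35 listed aminoacyl-tRNA synthetases, which charge transfer RNAs with their amino acids, 14 passed the test as higher on -M in wDah, and none did in mutants. The shares over all features were 8.83% and 13.0%. The interaction was below 0 for 8 of the 35 (22.9%, against 2.71% of all features) and above 0 for none. Its estimate lay under 0 in all 35, with a median of -0.29 against -0.04 over all features. The largest was that of AsnRS (FBgn0086443, chromosome 2L from 19129469 to 19131954, minus strand), which charges asparagine. Its libraries held 1459, 1352 and 1331 in wDah on Yaa and 3247, 3315 and 3502 on -M, and 1086, 1283 and 1149 and 1221, 1252 and 1126 in mutants. AsnRS thus rose 2.43-fold in wDah without overlap, while the mutant groups overlapped at a ratio of 1.02 (interaction -1.25 ± 0.10, SE, adjusted p = 2.8e-05).

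LeuRS followed with 2131, 2070 and 2245 on -M against 1203, 1126 and 1136 on Yaa in wDah, and with 1247, 1279 and 1143 against 1063, 1435 and 1123 in mutants (interaction -0.87 ± 0.14, adjusted p = 0.0028). IleRS and ValRS, for the other branched-chain amino acids, had interactions of -0.84 and -0.67, and ThrRS one of -0.60 (adjusted p = 0.0066, 0.003 and 0.0068). TrpRS is a weaker case, since its interaction of -0.59 (adjusted p = 0.041) passed in only 4 of the 12 fits that left out 1 library, with an adjusted p-value of up to 0.1.

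Amino acid transporters gave 3 interactions below 0 among 23 (13.0%, against 2.71% of all features) and none above 0. The list as a whole did not lie below 0, with a median of 0.03 and estimates above 0 in 12 of the 23. Without Gcn2 Yaa replicate 2 the counts were 3 below and 2 above 0. sbm (FBgn0030574, chromosome X from 14584733 to 14602580, minus strand), an L-amino acid transporter, held 3960, 4070 and 4002 in wDah on Yaa, 9794, 9581 and 9500 in wDah on -M, 4843, 3356 and 4397 in mutants on Yaa and 4543, 4147 and 4523 in mutants on -M. It rose 2.40-fold in wDah and its ranges overlapped in mutants (interaction -1.18 ± 0.15, adjusted p = 0.00052). path, a transporter of the growth-promoting PAT family, rose in both genotypes, 2.08-fold and 1.49-fold, and the difference passed the test (interaction -0.48 ± 0.09, adjusted p = 0.0069). CG16700, annotated as an amino acid transporter, had an interaction of -0.52 (adjusted p = 0.0087).

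In the methionine and S-adenosylmethionine cycle, 2 of 17 genes had an interaction below 0 and 2 above 0. Gnmt (FBgn0038074, chromosome 3R from 12674608 to 12676084, plus strand), the glycine N-methyltransferase that disposes of surplus S-adenosylmethionine, gave the largest of these. Its libraries held 57.7, 55.6 and 59.6 in wDah on Yaa and 418, 526 and 409 in wDah on -M, against 28.2, 35.5 and 30.4 in mutants on Yaa and 36.2, 19.3 and 22.4 in mutants on -M. The rise was 7.66-fold in wDah, whereas the mutant libraries of both diets overlapped and lay under all wDah libraries (interaction -3.25 ± 0.30, SE, adjusted p = 6.9e-05). Exons of Gnmt overlap those of CG43630 on the other strand. Cbs, the cystathionine beta-synthase that leads sulfur from homocysteine to cysteine, had an interaction of -0.88 ± 0.22 (adjusted p = 0.036), and this call held in 5 of the 12 fits without 1 library, with an adjusted p-value of up to 0.09.

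Sardh, the sarcosine dehydrogenase that acts on the product of Gnmt, moved the other way. It held 102, 109 and 116 and 181, 249 and 202 in wDah on Yaa and -M, and 169.5, 143 and 112 and 597, 679.5 and 502 in mutants (interaction 1.14 ± 0.24, adjusted p = 0.014). SpdS, the spermidine synthase, was lower in mutants than in wDah on Yaa and rose to the wDah level on -M, from 834 to 1015 to 1447 to 1545 against 1264 to 1417 and 1394 to 1450 in wDah (interaction 0.66 ± 0.10, adjusted p = 0.0028). CG10621, annotated as a homocysteine S-methyltransferase that makes methionine, rose 11.7-fold in wDah and 8.42-fold in mutants, and its interaction of -0.48 ± 0.19 did not pass (adjusted p = 0.17). Sam-S, which makes S-adenosylmethionine, and Ahcy, which clears its by-product, had interactions of -0.25 ± 0.08 and -0.37 ± 0.30 (adjusted p = 0.092 and 0.5). Of the other 10 genes of this cycle none was called, and the smallest adjusted p-value was 0.16, that of SamDC.

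The largest interaction above 0 among features with a mean of at least 100 was that of MsrA (FBgn0000565, chromosome 3L from 15511052 to 15513202, plus strand), the methionine sulfoxide reductase that returns oxidised methionine to methionine. Its libraries held 826, 895 and 878 in wDah on Yaa, 1077, 1033 and 1054 in wDah on -M and 889, 748 and 1003 in mutants on Yaa, but 9104, 10192 and 10071 in mutants on -M. All libraries of the other 3 groups were at 1077 or less, and the ratio of -M to Yaa was 11.2 in mutants and 1.22 in wDah (interaction 3.20 ± 0.13, SE, adjusted p = 4.2e-07).

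Of 14 listed enzymes that feed and use folate one-carbon units, 11 passed the test as higher on -M in wDah and 11 in mutants. The interaction was above 0 for 5 and below 0 for none, and its estimate lay above 0 in 8 of the 14. Shmt (FBgn0029823, chromosome X from 5913067 to 5916797, minus strand), the serine hydroxymethyltransferase, held 2095, 2253 and 2150 in wDah on Yaa and 8060, 9685 and 9789 on -M. Mutants held 1796, 1979 and 1698 on Yaa and 28391, 27837 and 24164 on -M. The groups on the 2 diets were far apart in both genotypes, at 4.22-fold in wDah and 14.7-fold in mutants (interaction 1.80 ± 0.12, SE, adjusted p = 1.4e-05). Exons of Shmt overlap CG12236 on the other strand.

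CG3999 (FBgn0037801, chromosome 3R from 10251518 to 10255268, plus strand), annotated as the decarboxylating glycine dehydrogenase of the glycine cleavage system, held 192, 199 and 186 and 1378, 1744 and 1948 in wDah and 252, 211 and 183 and 7655, 7550 and 6388 in mutants on Yaa and -M. It rose 8.66-fold and 33.5-fold (interaction 1.95 ± 0.19, adjusted p = 0.00012). CG6415, annotated as the aminomethyltransferase of the same system, had an interaction of 0.48 (adjusted p = 0.01). pug, a folate enzyme that interconverts one-carbon units, rose 1.64-fold and 3.46-fold, to 5377, 5968 and 5498 in wDah and 12433, 10967 and 11239 in mutants (interaction 1.08 ± 0.09, adjusted p = 4.7e-05). The fifth gene, ppl, a further subunit of the glycine cleavage system, had an interaction of 0.36 (adjusted p = 0.044) that passed in 3 of the 12 fits without 1 library. Nmdmc, aay and CG11899, described above, belong to this list and rose in both genotypes without an interaction that passed.

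Purine synthesis uses these one-carbon units, and Gart, which catalyses several of its steps, rose 4.42-fold in wDah, to 3350, 3841 and 3881, and 10.5-fold in mutants, to 11910, 11777 and 10190 (interaction 1.25 ± 0.16, adjusted p = 0.00052). AdSL, a later enzyme of the pathway, had an interaction of 0.94 ± 0.18 (adjusted p = 0.009). Over all 20 listed nucleotide synthesis genes, 3 had an interaction above 0 and 1 below 0, with a median of -0.11 that turned to 0.03 without Gcn2 Yaa replicate 2 and to 0.14 without the 3 libraries rich in ovary transcripts.

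**Figure D3:**
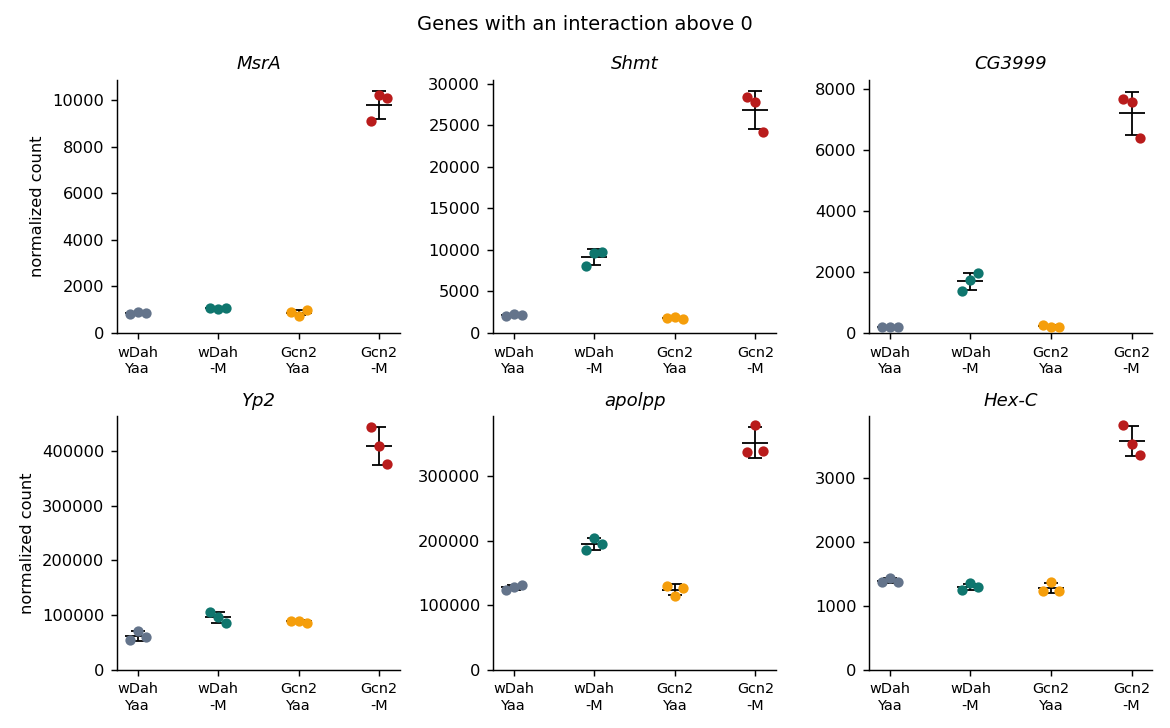
Normalized counts of 6 genes with an interaction above 0, by genotype and diet. Points are the 3 libraries of a group, horizontal marks their mean and bars the SD, and the vertical axis starts at 0. Mutants on -M are the highest group in each panel. For MsrA and Hex-C the other 3 groups lie close together, while Shmt and CG3999 also rose in wDah on -M.

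Enzymes of amino acid breakdown gave 10 interactions above 0 and 1 below 0 among 26 (42.3% called, against 6.93% of all features). Their median was 0.30. arg, the arginase, held 542, 542 and 391 in mutants on -M and between 75.2 and 117 in the 9 libraries of the other groups (interaction 2.01 ± 0.20, adjusted p = 0.00012), and its exons overlap those of elav and CG4293. Oat, which acts on the ornithine that arginase makes, went from 372 to 558 in wDah and from 383 to 1201 in mutants (interaction 1.07 ± 0.15, adjusted p = 0.0012). The mitochondrial aspartate aminotransferase Got2 and the tryptophan dioxygenase v had interactions of 0.92 ± 0.08 and 0.98 ± 0.10 (adjusted p = 4.0e-05 and 0.00011). The single called value below 0, that of hgo, a tyrosine-degrading enzyme, was -0.73 (adjusted p = 0.033) and passed in 3 of the 12 fits without 1 library. Without Gcn2 Yaa replicate 2 the list gave 12 calls above and 2 below 0. These counts were 11 and 3 without the 3 libraries rich in ovary transcripts, and 9 and 2 with libraries rescaled to the same total.

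Yolk proteins, which the fat body secretes for the eggs, rose more in mutants. Yp1 (FBgn0004045, chromosome X from 10053811 to 10055498, plus strand) held 154430, 191620 and 165575 in wDah on Yaa, 231228, 221226 and 200144 in wDah on -M, 214341, 222734 and 214990 in mutants on Yaa and 729616, 661420 and 630355 in mutants on -M. The ranges did not overlap between diets in either genotype, and Yp1 rose 1.28-fold in wDah and 3.10-fold in mutants (interaction 1.28 ± 0.13, SE, adjusted p = 0.00016). Yp2 and Yp3 rose 4.62-fold and 4.28-fold in mutants against 1.56-fold and 1.75-fold in wDah (interactions 1.57 ± 0.15 and 1.29 ± 0.13, adjusted p = 0.00011 and 0.00012). All 3 genes lie on the X chromosome and share much of their sequence, so reads may be divided between them with error.

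The lipoprotein apolpp, which carries lipids from the fat body, held 123217, 127566 and 131918 in wDah on Yaa, 184892, 203579 and 194258 in wDah on -M, 130441, 114712 and 126556 in mutants on Yaa and 337883, 379343 and 338662 in mutants on -M. It rose 1.52-fold and 2.84-fold (interaction 0.90 ± 0.11, adjusted p = 0.00037). Enzymes of fatty acid synthesis went the same way. ACC, AcCoAS and FASN1 had interactions of 0.77 ± 0.08, 0.74 ± 0.09 and 0.68 ± 0.11 (adjusted p = 0.00012, 0.00052 and 0.003). FASN1, the fatty acid synthase, started lower in mutants, at 26658 to 32634 on Yaa against 51770 to 56844 in wDah. On -M its libraries held 62528 to 68599 against 71152 to 78579 in wDah. That difference did not pass the test (-0.21 ± 0.08, SE, limma, adjusted p = 0.091). Of the 28 listed genes of lipid storage and synthesis, 8 had an interaction above 0 and 1 below 0. Without Gcn2 Yaa replicate 2 the latter count was 4.

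Sugar metabolism gave 7 interactions above 0 and 1 below 0 among 23 listed genes of glycolysis and sugar stores. Hex-C (FBgn0001187), a hexokinase of the fat body, held 1367, 1429 and 1373 in wDah on Yaa, 1251, 1346 and 1292 in wDah on -M, 1232, 1373 and 1233 in mutants on Yaa and 3822, 3527 and 3353 in mutants on -M. The first 3 groups lay between 1232 and 1429, and mutants on -M stood apart (interaction 1.58 ± 0.09, SE, adjusted p = 3.5e-06). Tps1, which makes the blood sugar trehalose, had an interaction of 0.68 ± 0.06 (adjusted p = 5.7e-05). Idh, an isocitrate dehydrogenase, rose 1.34-fold in wDah and 2.54-fold in mutants (interaction 0.92 ± 0.08, adjusted p = 3.7e-05), 1 of 4 interactions above 0 among 20 listed genes of the TCA cycle. Sodh-1 and Had1, annotated as a sorbitol dehydrogenase and an L-gulonate dehydrogenase, rose 7.72-fold and 5.17-fold in mutants, with ratios of 1.39 and 0.95 in wDah (interactions 2.47 ± 0.15 and 2.44 ± 0.17, adjusted p = 5.8e-06 and 1.4e-05).

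Markers of the fat body include several of these genes. Of 9 markers, 7 passed the filter on low values, namely Lsp2, Yp1, Yp2, Yp3, apolpp, FASN1 and fit, while Fbp1 and Fbp2 did not. Lsp2 had no interaction that passed, and the other 6 had one above 0. The summed normalized counts of all 9 were 442380 to 521410 in wDah on Yaa, 673298 to 729710 in wDah on -M, 547035 to 551159 in mutants on Yaa and 1788197 to 1997605 in mutants on -M, and none was at 0 in any library. The median marker, in log2 of normalized count + 1, was 15.66 to 15.79 in wDah on Yaa and 16.12 to 16.26 on -M. In mutants it was 14.70 to 14.99 on Yaa and 15.93 to 16.07 on -M. On -M the median was thus lower in mutants than in wDah, while the sum was higher. The yolk, lipoprotein and fatty acid genes above share members with this list, and the part of fat body RNA in the results was not tested. In RNA from whole heads and thoraces, a larger share of a cell type and more RNA per cell cannot be told apart.

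The larval serum proteins are amino acid stores of the larva whose genes the adult fat body can also use. Lsp2 rose from 125, 203 and 406 on Yaa to 6862, 9550 and 7551 on -M in wDah, and from 196, 493 and 291 to 8698, 7711 and 7410 in mutants. Lsp1beta rose from 51.3, 51.3 and 44.3 to 1847, 3855 and 1985 in wDah and from 14.1, 16.6 and 16.6 to 596, 739 and 339.9 in mutants. Both rises were large in both genotypes, and the interactions of -0.48 ± 0.55 and -0.61 ± 0.42 did not pass (adjusted p = 0.64 and 0.44). Of 6 such genes in the tables, 3 passed the filter on low values, the third being Lsp1gamma (interaction -0.36 ± 0.41, adjusted p = 0.65).

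Hormones and signals of nutrient state split by direction, with 5 interactions above 0 and 6 below 0 among 39 listed genes. Ilp6, the insulin-like peptide of the fat body, held 821, 664 and 679 in wDah on Yaa, 1648, 1390 and 1411 in wDah on -M, 749, 575 and 674 in mutants on Yaa and 747, 701 and 761 in mutants on -M. It rose 2.06-fold in wDah and its ranges overlapped in mutants (interaction -0.89 ± 0.16, adjusted p = 0.0053). sug, a transcription factor of sugar sensing, was at 1164 to 1455 and 1139 to 1482 in wDah and fell in mutants from 769.8 to 1078 to 378 to 392 (interaction -1.22 ± 0.19, adjusted p = 0.0025). The fat body signal fit and the alpha-glucosidase tobi, a target of insulin and glucagon-like signalling, rose in both genotypes and more in mutants. fit went from 661 to 2121 in wDah and from 1766 to 11176 in mutants, and tobi from 6709 to 14381 and from 5810 to 28771 (interactions 1.01 ± 0.21 and 1.22 ± 0.15, adjusted p = 0.015 and 0.00052). Gbp2, a growth-blocking peptide of the fat body, had an interaction of 0.87 ± 0.09 (adjusted p = 0.00012). Among 24 genes of the TORC1 pathway none was called by limma, and the smallest adjusted p-value was 0.1, that of S6k. At an unadjusted p under 0.05 there were 7, and without Gcn2 Yaa replicate 2 the test called 1 above and 2 below 0, with libraries rescaled to the same total 2 below 0.

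Ribosomal protein genes fell on -M in mutants. Of 83 genes for cytoplasmic ribosomal proteins, 72 passed the test as lower on -M in mutants and none did in wDah, and 26 had an interaction below 0 and none above 0. The median change was -0.29 in mutants and -0.06 in wDah. RpL41 had the largest interaction and held 13993, 13126 and 12434 in wDah on Yaa, 13423, 11995 and 12193 in wDah on -M, 11829, 13707 and 13649 in mutants on Yaa and 7463, 7570 and 7492 in mutants on -M. The mutant libraries on -M were thus lower than all others (interaction -0.72 ± 0.10, SE, adjusted p = 0.00083). RpS2 and RpS12 had interactions of -0.51 ± 0.09 and -0.49 ± 0.08 (adjusted p = 0.0062 and 0.0042). The count of 26 depended on the scaling and the libraries, at 36 with all libraries rescaled to the same total and 15 without the 3 libraries rich in ovary transcripts, always with none above 0. Mitochondrial ribosomal proteins gave 4 interactions below 0 and none above 0 among 73, with a median of -0.21 that was -0.14 without those 3 libraries. This is 5.48% called, against 6.93% of all features (2.71% below 0). On -M, 9 of the 73 passed as higher in wDah, and 1 passed as higher and 1 as lower in mutants.

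Genes of ribosome biogenesis gave 15 interactions below 0 and none above 0 among 130 (11.5%, against 2.71% of all features below 0), with a median of -0.47. Their median lay 0.41 higher in mutants than in wDah on Yaa and 0.11 lower on -M. Without Gcn2 Yaa replicate 2, where ovary markers summed to 6824, the median interaction was -0.31 and 29 were called below 0, and without the 3 libraries rich in ovary transcripts these values were -0.28 and 28. The part of ovary RNA in this list was not tested. eIF6 (FBgn0034915), needed for the large ribosomal subunit, held 363, 368 and 342 in wDah on Yaa, 449, 442 and 455 in wDah on -M, 1036, 999 and 1182 in mutants on Yaa and 525, 497 and 485 in mutants on -M. It was higher in mutants on Yaa (difference 1.58 ± 0.07, adjusted p = 2.7e-07), and on -M the difference was 0.16 ± 0.07 (adjusted p = 0.15), an interaction of -1.42 ± 0.10 (adjusted p = 1.4e-05). RIOK1, a kinase of small subunit maturation, went from 336 to 459.6 on Yaa to 189 to 214 on -M in mutants, against 154 to 182 and 174 to 201 in wDah (interaction -1.11 ± 0.17, adjusted p = 0.0024).

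Of the 298 features with an interaction below 0, 92 were called as higher in mutants on Yaa, and for 59 of these no difference between the genotypes was called on -M. The Yaa libraries enter both values, so these counts describe the interactions and are no separate result. CG11893, from the list of ecdysteroid kinase-like genes, held 543, 501 and 569.7 in wDah on Yaa, 447, 523 and 508 in wDah on -M, 1723, 1052 and 1750 in mutants on Yaa and 166, 236 and 204 in mutants on -M. Mutants thus lay above wDah on Yaa and below it on -M (interaction -2.74 ± 0.26, SE, adjusted p = 8.3e-05). Cyp12c1, a mitochondrial cytochrome P450, held 6451, 4801 and 7348 in mutants on Yaa and 2070, 2142 and 1672 on -M, while the wDah libraries lay between 756 and 999 (interaction -1.92 ± 0.19, adjusted p = 0.00012). CG33158, annotated as a ribosome assembly GTPase, fell from 816, 666 and 860.2 to 276, 315 and 282 in mutants and stood at 204 to 231 and 291 to 303 in wDah (interaction -1.86 ± 0.14, adjusted p = 2.1e-05).

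Obp99b (FBgn0039685, chromosome 3R from 29716254 to 29716896, minus strand), an odorant-binding protein, had the largest interaction below 0 of those with a mean of at least 100. Its libraries held 73.2, 74.5 and 116 in wDah on Yaa and 566, 886 and 988 on -M, and 389, 292 and 552 and 247, 92.7 and 120.1 in mutants. It rose in wDah and fell in mutants, each without overlap, and mutants lay above wDah on Yaa and below it on -M (interaction -4.68 ± 0.51, SE, adjusted p = 0.0002). Among all 23 listed odorant-binding proteins, 1 interaction was below 0 and 2 were above 0.

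Of 28 listed antimicrobial peptides and recognition proteins, 7 had an interaction above 0 and none below 0, or 8 and 1 without Gcn2 Yaa replicate 2. Not all 7 rose in mutants. Drsl4 (interaction 1.21) fell from 245 to 86.7 in wDah, while its change from 232 to 190 in mutants was not called. Mtk (interaction 1.64) had no diet effect called in either genotype, and its interaction passed in 5 of the 12 fits without 1 library. PGRP-SD, a recognition protein, rose 1.45-fold in wDah and 3.52-fold in mutants (interaction 1.28 ± 0.19, adjusted p = 0.0021), and the bomanins BomT2 and BomBc2 had interactions of 0.88 ± 0.14 and 0.70 ± 0.11 (adjusted p = 0.003 and 0.0026). Blood cell markers moved with them. Of 6 hemocyte markers, 4 had an interaction above 0 (2 without the 3 libraries rich in ovary transcripts), none was at 0 in any library, and their summed normalized counts were 10059 to 12646 in the 9 libraries of the other groups and 15858 to 18908 in mutants on -M. Their part in the immune result was not tested.

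Of 76 cytochrome P450 genes, 13 had an interaction above 0 and 5 below 0, from 1.65 ± 0.13 for Cyp6w1 (adjusted p = 2.8e-05) to -1.92 ± 0.19 for Cyp12c1. Of 8 clock genes, 3 had an interaction above 0 and none below 0, among them tim, which represses the clock, with 0.96 ± 0.15 (adjusted p = 0.0026), and the light sensor cry with 0.53 ± 0.08 (adjusted p = 0.0013). The counts above and below 0 were 1 and 2 of 31 for glutathione S-transferases (9.68% called). They were 1 and 3 of 27 for UDP-glycosyltransferases (14.81%) and 3 and 6 of 44 for ecdysteroid kinase-like genes (20.45%). Hsp68 (1.00 ± 0.12, adjusted p = 0.0005) was the only one of 18 heat shock genes to be called with all 12 libraries, against 2 above and 1 below 0 without Gcn2 Yaa replicate 2. Against the 6.93% of all features that were called, 1 of 16 genes was called for beta-oxidation (6.25%, Mcad), 2 of 20 for autophagy (10.0%), 1 of 37 for digestive enzymes (2.70%, Mal-B1) and 5 of 509 single copies of transposable elements (0.98%). No interaction was called by limma among 33 proteasome, 68 oxidative phosphorylation and 12 mitochondrially encoded genes, where the smallest adjusted p-values were 0.34, 0.1 and 0.097, and 0, 2 and 5 had an unadjusted p under 0.05. The median interactions of these lists were -0.03, 0.03 and -0.41. None of the 12 mitochondrially encoded genes had an estimate above 0. Without Gcn2 Yaa replicate 2, 2 oxidative phosphorylation and 2 mitochondrially encoded genes were called below 0 and no proteasome gene was.

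Elongases and hydrocarbon synthesis genes, which oenocytes use to make the waxes of the cuticle, had low estimates that mostly did not pass. Their median interaction was -1.56 over 24 genes, and 15 passed the test as lower on -M in mutants and none in wDah, but 1 interaction was called, that of CG18609 (-2.01, adjusted p = 0.04, called in 4 of the 12 fits without 1 library). Single libraries were far apart. The summed counts of 5 oenocyte markers were 15100 to 34478 in mutants on Yaa and 2367 to 11637 in mutants on -M, against 11240 to 15186 and 5538 to 12965 in wDah. The highest oenocyte sum came from Gcn2 Yaa replicate 2, which also led in ovary RNA. Without the 3 libraries rich in ovary transcripts, 13 of the 24 genes had an interaction below 0, and the part of these libraries in the result was not tested further.

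**Figure D4:**
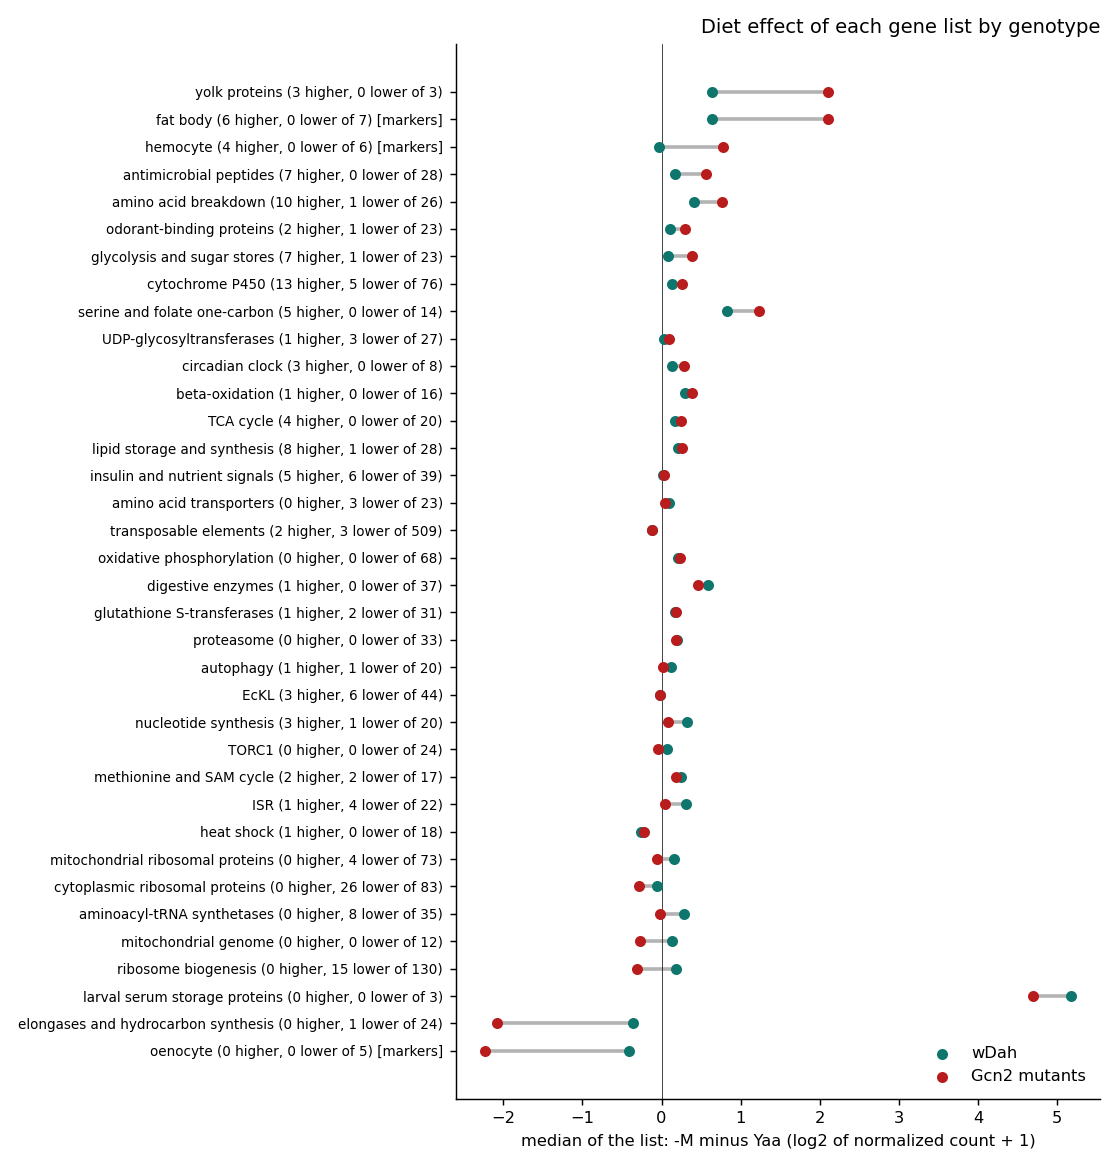
Median change between -M and Yaa of each gene list, in log2 of normalized count + 1, in wDah and in Gcn2 mutants, ordered by the median interaction, with the number of members called above and below 0 beside each name. Yolk proteins have a larger median in mutants, at 2.10 against 0.64. The fat body markers include the yolk proteins, whose values are also the medians of that list. Aminoacyl-tRNA synthetases have a median of 0.28 in wDah and -0.02 in mutants, and larval serum proteins are high in both.

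The interaction was then set against those on the other diets. The direct test of the difference uses the libraries on -M and on the other diet alone, since Yaa drops out. Against -R, 4825 of 10967 features (44.0%) differed, 1974 with a higher value on -M and 2851 with a lower one. Against -All, 797 of 10919 (7.30%) differed, with 466 (4.27%) higher and 331 (3.03%) lower. Of the 761 features called on -M, 510 differed from -R and 380 from -All in the direction of their interaction. The interaction and both of these tests share the -M libraries, so the last 2 counts are descriptions.

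The difference between -M and -All was -1.79 ± 0.21 for AsnS, -1.58 ± 0.09 for AsnRS, -3.36 ± 0.35 for Gnmt and 3.30 ± 0.12 for MsrA (SE, adjusted p = 0.00031, 4.0e-06, 0.00021 and 4.1e-08). For eIF6 and CG11893 it was 0.05 ± 0.11 and -0.14 ± 0.26 (adjusted p = 0.84 and 0.81). Both latter genes had interactions below 0 on -M and on -All, at -1.42 and -1.47 for eIF6 and -2.74 and -2.61 for CG11893, which share the Yaa libraries. For eIF6, CG11893 and MsrA the differences from -R were larger, at -4.54 ± 0.12, -6.97 ± 0.32 and 5.33 ± 0.12 (adjusted p = 1.6e-09, 8.7e-08 and 8.4e-10). Other genes, such as Thor and v, differed less from -R than from -All. Thor had a difference of -0.07 ± 0.32 from -R (adjusted p = 0.88) and -1.16 ± 0.10 from -All (adjusted p = 7.2e-05). For v these values were 0.34 ± 0.15 and 1.14 ± 0.10 (adjusted p = 0.089 and 7.7e-05). Of the 35 aminoacyl-tRNA synthetases, 30 differed from -R and 7 from -All. Of the 130 ribosome biogenesis genes, 120 differed from -R and 10 from -All. The shares over all features were 44.0% and 7.30%. The median interaction of the ribosome biogenesis genes was -0.47 on -M, 1.02 on -R and -0.45 on -All, which share the Yaa libraries.

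**Figure D5:**
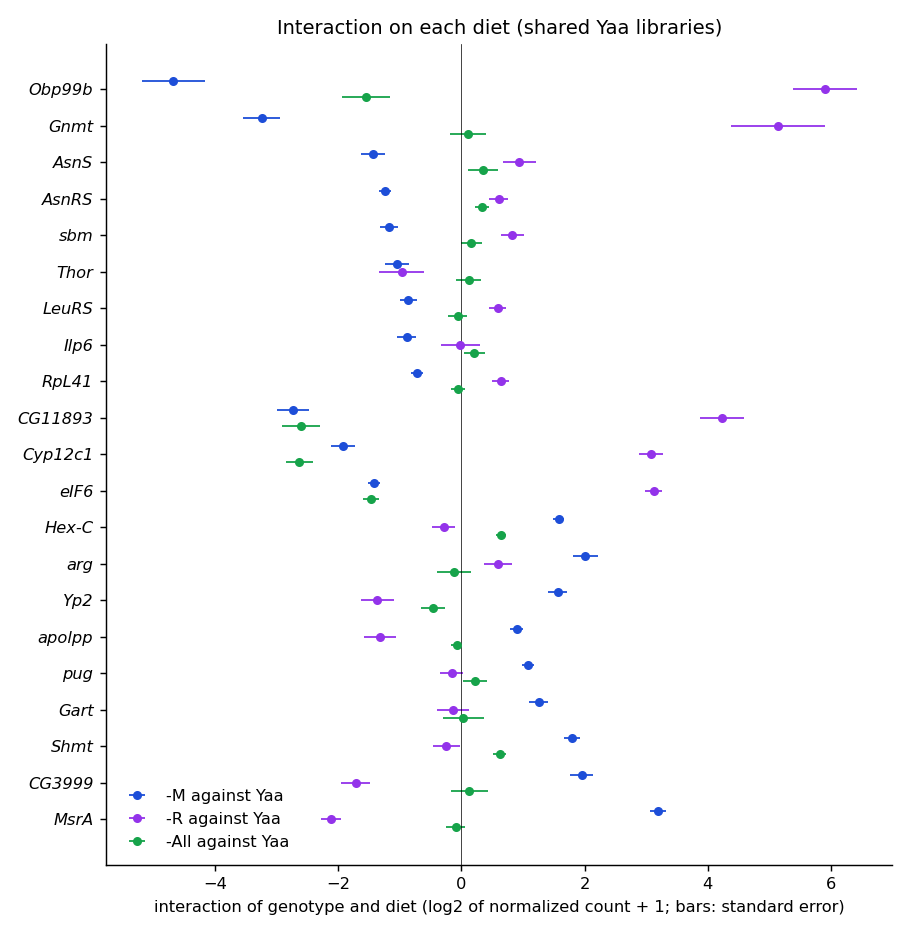
Interaction of genotype and diet for 21 genes, in log2 of normalized count + 1, for -M, -R and -All, each against Yaa, with bars for the standard error. The 3 values of a gene share their Yaa libraries. AsnS is at -1.44 on -M, 0.94 on -R and 0.35 on -All, MsrA at 3.20, -2.13 and -0.10, and eIF6 at -1.42, 3.12 and -1.47.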

How the data were processed

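RNA from heads and thoraces was sequenced by the authors as 100 bp single-end reads from polyadenylated RNA, and assigned to the BDGP6.32 annotation (Ensembl 103) with kallisto 0.46.2. For all 24 libraries the authors deposited 1 table of a signal, namely normalized counts, which are estimated counts that the authors divided by DESeq2 1.24.0 size factors (R 3.6.3). They also deposited FPKM values and, for each diet comparison, fold changes with p-values, none of which were used. Low values were whole multiples of a step in 84.7% to 87.0% of cases (within 0.05), so no count model was fitted. The step gave the estimate of reads, and depth limits only the features near the minimum.

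The 12 libraries were grouped by their labels and fitted together with limma 3.58.1 in R 4.3.3 on log2(normalized count + 1), for features with a mean of at least 10, with a mean-variance trend. The tests were two-sided and p-values were adjusted by the Benjamini-Hochberg method over all features tested. The difference from the interaction on -R or -All was fitted likewise on the libraries of both genotypes on both diets. The script was tested on simulated data with 1 fixed dispersion for all genes, which was not estimated from these data. It recovered 4.5% of interactions of size 0.5, 50% of size 1 and 98.5% of size 2 on the log2 scale, with 4 false calls. These rates do not give the power of the real fit, where smaller interactions passed, such as -0.39 for scyl. An interaction that did not pass may still be present. Replicates are separate pools of flies. Plots used matplotlib 3.10.9 (Python 3.11.15). Positions were taken from the BDGP6.54 annotation (Ensembl 115), which uses the same assembly.

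The members and the 34 gene lists were chosen with earlier results of these data known. Lists are described by counts and medians, with no test. Named genes were the 12 largest called interactions in each direction with a mean of at least 100, up to 6 called members of each list by size (or the 2 with the smallest p), all members of 4 lists (the integrated stress response, the methionine cycle, larval serum proteins and yolk proteins), Gcn2, AsnS and crc, and up to 6 genes with opposite diet effects. Marker genes of other cell types were summed per library. Alternatives were the pseudocount, the filter, the scaling, the libraries in the fit, a replicate block, array weights, the trend and an ovary covariate. No label links libraries of the same number, and their deviations from the group means correlated above 0.1 in 6 of 18 pairs (-0.38 to 0.487), among them all 3 pairs of mutants on Yaa and -M (0.23 to 0.487). A search of promoters for motifs was not run.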

Additional observations from a re-analysis of the deposited data

Results flagged for a closer look

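The genotypes differed in their response to -M in 761 features, which the interaction tested directly. The interaction on -M differed from that on -R in 4825 features and from that on -All in 797, again by a direct test. The following 6 genes are the largest whose diet effects passed the test in opposite directions in wDah and mutants.

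Obp99b (interaction -4.68) rose in wDah and fell in mutants, as given above. CG13659 (-2.16) went from 116 to 226 in wDah and from 255.1 to 111 in mutants, on Yaa and -M. CG33158 (-1.86) went from 217 to 296 in wDah and from 781 to 291 in mutants. Cyp9b1 (-1.61), a cytochrome P450, went from 389 to 695 in wDah and from 851 to 494 in mutants. CG7142 (-1.82) went from 25.0 to 46.5 in wDah and from 47.8 to 24.6 in mutants. Tsp42Ep (2.81), a tetraspanin, fell in wDah from 18.2 to 7.73 and rose in mutants from 9.59 to 33.1, at a low level. The values are mean normalized counts of 3 libraries.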

How the results depend on the processing

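The count of 761 interactions was within 1.5 times under the other pseudocounts, filters, scalings and fits (621 to 1049), except array weights, which gave 1441 (737 above and 704 below 0). Leaving out 1 library gave 512 (without wDah Yaa replicate 2) to 1262 (without Gcn2 Yaa replicate 2). The difference from -R gave 4102 to 5927 features when 1 library was left out. The difference from -All gave 532 to 725, but 483 with all 24 libraries in 1 fit. It gave 389 without wDah -M replicate 1, Gcn2 -M replicate 2 and wDah -All replicate 1. These 3 were the libraries set aside as high in ovary transcripts in that comparison, which holds no Yaa library. The split of the 4825 features against -R moved from 1974 above and 2851 below 0 to 1265 and 3445 with libraries rescaled to the same total, and that of the 797 against -All from 466 and 331 to 369 and 418. The Gcn2 level by genotype (log2 difference) was between -2.26 and -2.11 when 1 library was left out. A replicate block gave 621 interactions, 4701 differences from -R and 702 from -All, and 17 in place of 26 cytoplasmic ribosomal protein genes. The numbers were not taken as pairs, since no label links them and the correlations were above 0.1 within mutants but not between the other groups throughout. Of the 131 named genes that were called, 96 kept their call in all 24 alternatives, 35 lost it in at least 1 and none changed sign, and 11 of the 42 others were called in at least 1. The cause of these shifts was not tested. Counts of list members without Gcn2 Yaa replicate 2 were chosen after seeing the data. Low features are limited by depth, and with 3 libraries a group the median standard error of an interaction was 0.157.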
